A study of Sus scrofa with 16 samples.

Results

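The transcripts of 7 plasma carrier and inhibitor proteins, RBP4, TF, AHSG, AMBP, ITIH4, APOA1 and APOA2, are described here in whole pig conceptuses while these elongate in the uterus. The genes were taken by symbol from the platform annotation, which gave 10 of the 1015 probes and 7 of the 636 genes named by a probe with 1 symbol. RBP4 had 3 probes, APOA1 had 2 and each of the others had 1. The study hybridised amplified RNA to a cDNA macroarray and compared 4 stages of shape and length, with 4 arrays each. Small spherical conceptuses measured 1 to 5 mm, large ones 6 to 11 mm, tubular conceptuses 13 to 45 mm and filamentous ones more than 100 mm. No treatment or genotype is given in the labels for any stage. The labels do not tie the arrays of a stage to separate animals or litters, so p-values measure the spread between these samples, which may be partly technical.

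As background, the hypoblast of the pig blastocyst spreads under the trophectoderm and becomes the endoderm of the yolk sac. Before the fetal liver takes over, yolk sac endoderm makes many of the proteins that later circulate in plasma, among them apolipoproteins, transferrin, fetuin and protease inhibitors. Retinol-binding protein is also a known secretion of the elongating pig conceptus, and the uterus makes it too. An array of a whole conceptus does not show which cells made a transcript, and fewer cells of a type cannot be told apart from less RNA per cell.

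The endoderm label could be checked against few markers. AFP, the fetal albumin relative of yolk sac and liver, had mean intensities of 57.8 ± 8.11 and 69.1 ± 21.8 in the small and the large spherical stage, and of 70.9 ± 12.1 and 56.3 ± 15.7 in the tubular and the filamentous one (SD, n = 4). It was thus measured at every stage, on average between the 41.8th and 51.9th percentile of its array. The other defining markers of the lineage, ALB, TTR, GATA4, GATA6, SOX17, FOXA2 and HNF4A, had no probe with 1 symbol. Of the trophectoderm keratins, KRT18 averaged the 95.5th to 97.2nd percentile, KRT19 the 61.9th to 77.1st and KRT8 the 13.6th to 18.2nd. The members therefore cannot be assigned to yolk sac endoderm from these arrays, and they are called here by their genes.

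The arrays had median intensities of 62.8 to 71.4. The 4 arrays numbered 1, 1 per stage, stood apart on the first principal component, with scores of 8.17 to 16.3 against -9.40 to 4.25 for the other 12, so values from the 12 arrays numbered 2 to 4 are given beside the leading results. Filamentous replicate 1 gave the highest of all 16 values for 5 of the 10 member probes and the lowest for 1, so each member's leading differences with the filamentous stage are also given without it. Members differed in brightness. APOA1 probe 138, APOA2, AHSG and RBP4 probe 134 read at least 24.5 on every array. ITIH4 read below 10 on 16 arrays, APOA1 probe 164 on 15 and AMBP on 12, and these 3 probes held the lowest value of their array 4, 7 and 3 times. Brightness depends on the clone as well as on the transcript, so levels are compared between stages and not between genes.

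**Figure D1:**
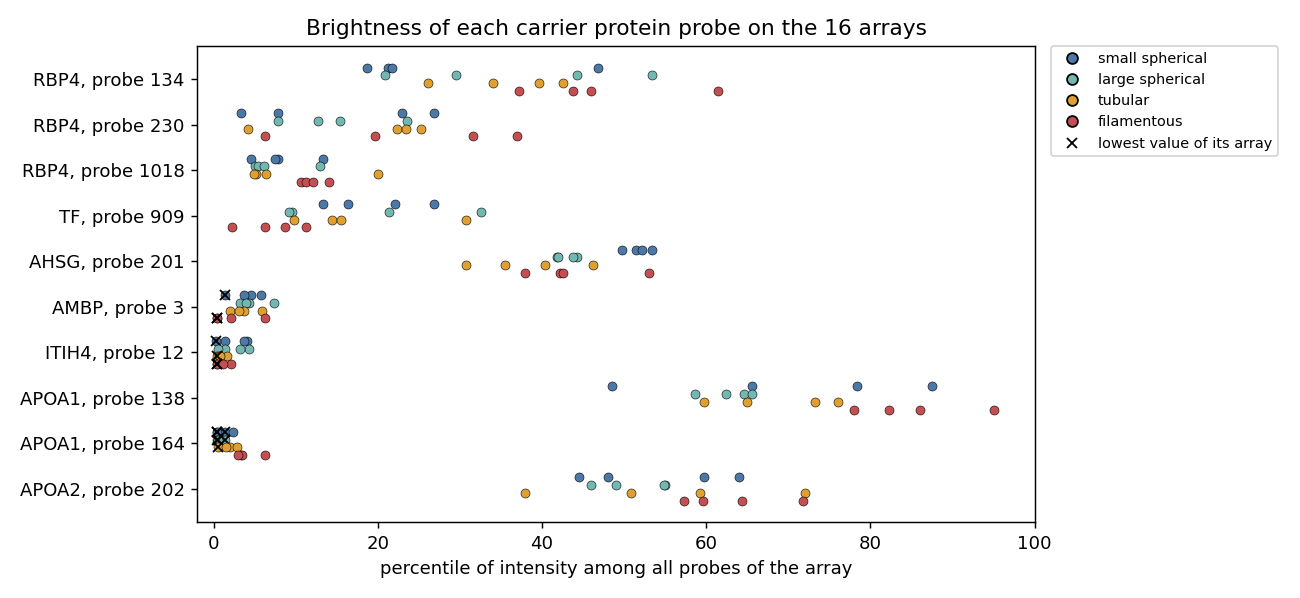
Percentile of each carrier protein probe among all probes of its array (x axis), for the 10 probes (rows) on 16 arrays coloured by stage; crosses mark the lowest value of an array. AMBP, ITIH4 and APOA1 probe 164 lie at the dim end, whereas APOA1 probe 138 has a median percentile of 69.5 and APOA2 one of 56.1.

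The question was whether the transcripts of these proteins differed between stages. Both apolipoproteins and RBP4 read highest in filamentous conceptuses, TF, AMBP and ITIH4 read lowest there, and AHSG was highest in small spherical ones. None of these differences passed the test across the whole table. In the limma fit, 0 of 10 member probes had an adjusted p (Benjamini-Hochberg over 1014 probes) below 0.05 in the F test over stages, against 0.394% of all probes. The same count of 0 held for the linear trend over stage order (0.986% of all probes). It also held for large minus small spherical (0.394%), tubular minus small spherical (0.394%) and filamentous minus small spherical (0.888%). For tubular minus large spherical, filamentous minus large spherical and filamentous minus tubular, 0% of all probes passed.

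At an unadjusted p below 0.05 the members' counts were 4 of 10 in the F test (10.4% of all probes) and 5 of 10 in the trend (14.2%). In single contrasts they were 5 of 10 for filamentous minus small spherical (14.6%), 4 of 10 for filamentous minus large spherical (6.02%), 3 of 10 for filamentous minus tubular (3.35%) and 1 of 10 for tubular minus small spherical (11.4%). No member reached it for large minus small spherical (9.37%) or tubular minus large spherical (3.25%). Contrasts with a stage in common use the same arrays of that stage. AMBP and ITIH4 held equal intensities on 6 of 16 arrays, so their counts are not independent. The members were chosen with earlier results of these data known, so these counts are not a test of them as a group. With each gene taken at its brightest probe, the 7 genes had a median log2 difference of 0.27 for filamentous minus tubular, with 4 positive and 3 negative, beside 0.02 over all probes. For filamentous minus small spherical the gene median was -0.28, with 3 positive and 4 negative, beside -0.03 over all probes. Over the 10 probes, where RBP4 counts 3 times and APOA1 2 times, these medians were 0.32 and 0.48, so the sign of the median for filamentous minus small spherical depends on how the genes are counted.

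**Figure D2:**
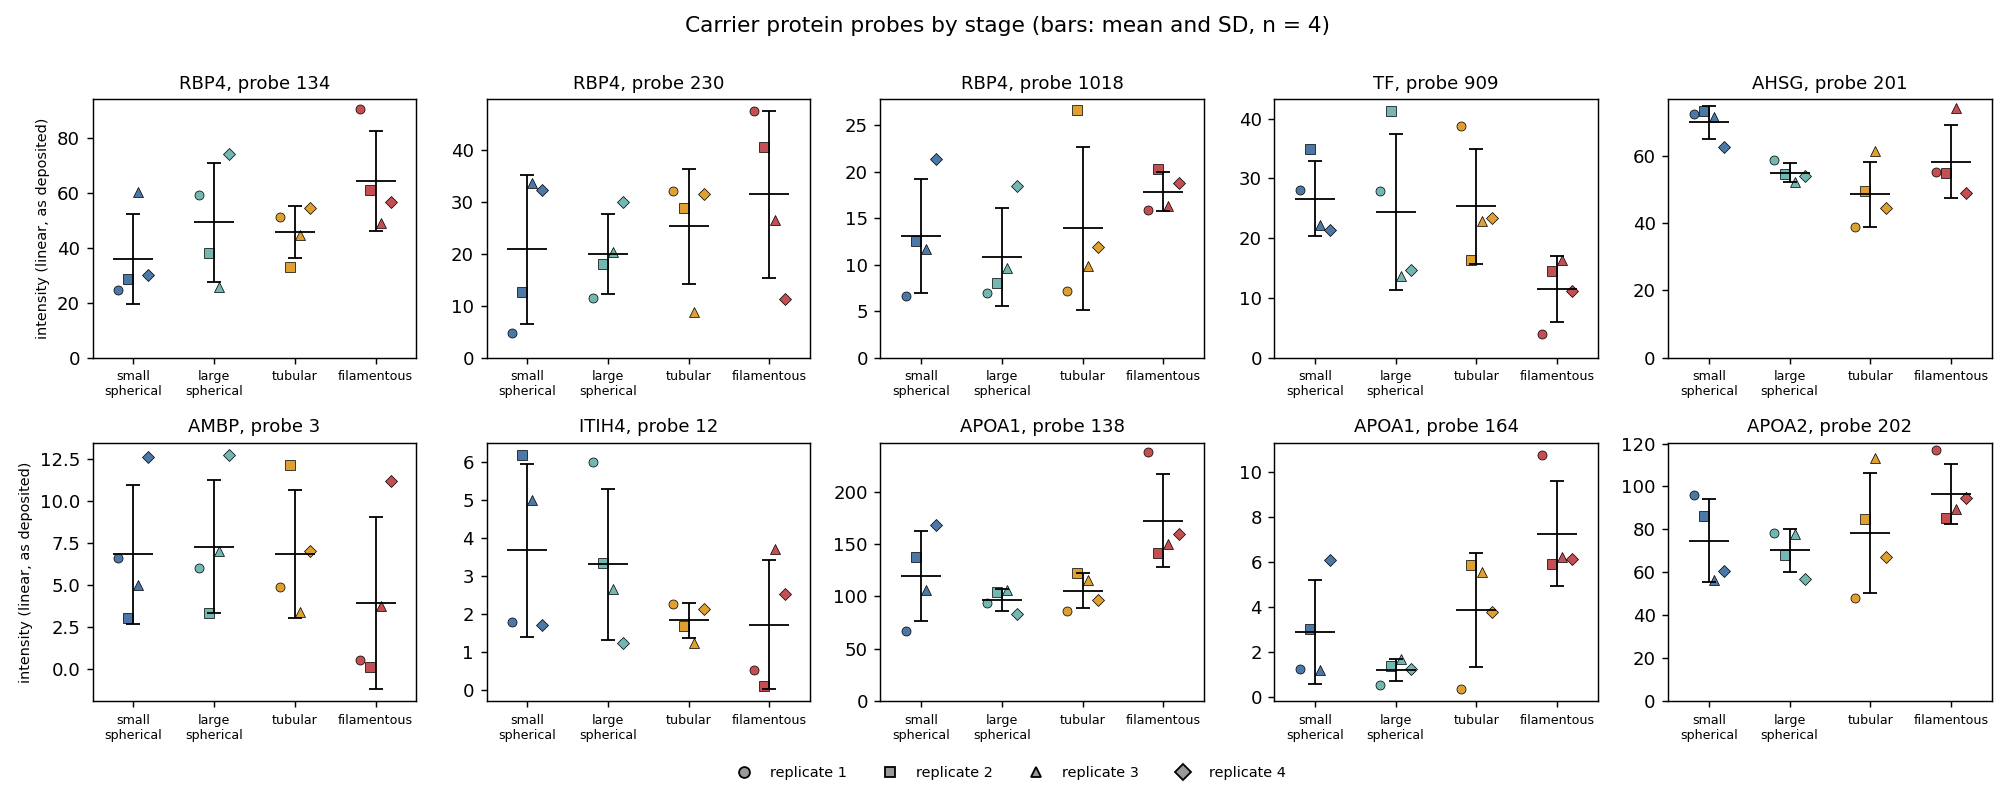
Intensity (linear, as deposited) of the 10 carrier protein probes in the 4 stages, with 1 point per array, its shape giving the replicate number, and the mean and SD of 4 arrays as bars. APOA1 stands highest in filamentous conceptuses at both probes, TF stands lowest there, and the 4 small spherical arrays of AHSG lie above all large spherical and tubular ones.

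APOA1 and APOA2 are proteins of high-density lipoprotein, which carries cholesterol and other lipids between cells. APOA1 probe 138 read 67.3, 137, 106 and 169 on the small spherical arrays 1 to 4, and 93.7, 105, 106 and 83.7 on the large spherical ones. It read 86.4, 123, 116 and 96.7 in tubular conceptuses and 238, 142, 149.8 and 160.0 in filamentous ones. The filamentous arrays all lay above the tubular and the large spherical ones, and they overlapped the small spherical arrays. APOA1 was 1.62-fold higher in filamentous than in tubular conceptuses at this probe, with 172 ± 44.5 against 105 ± 16.7 (SD, n = 4 each, log2 difference 0.69 ± 0.25 SE, limma adjusted p = 0.994). Against large spherical conceptuses, with 97.0 ± 10.4, it was 1.75-fold higher (0.80 ± 0.25, adjusted p = 0.610). The differences from tubular and large spherical conceptuses were 0.53 and 0.64 without filamentous replicate 1, and 0.44 and 0.62 on the 12 arrays numbered 2 to 4. The difference from small spherical ones was 0.57 over all arrays, 0.41 without filamentous replicate 1, 0.32 without small spherical replicate 1 and 0.16 on those 12.

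The other APOA1 probe, 164, was dim. It read 1.25, 3.00, 1.19 and 6.09 on small spherical arrays 1 to 4, 0.514, 1.35, 1.67 and 1.24 on large spherical, 0.330, 5.86, 5.56 and 3.77 on tubular and 10.8, 5.90, 6.25 and 6.15 on filamentous arrays. It held the lowest value of its array on 3 small spherical, 3 large spherical and 1 tubular array, and on 0 of 4 filamentous ones. The filamentous arrays again lay above all tubular and all large spherical ones, though by a narrow gap to tubular replicate 2. The log2 difference for filamentous minus tubular was 1.48 ± 0.77 (adjusted p = 0.994), and it was 1.27 without filamentous replicate 1, 0.50 without tubular replicate 1 and 0.29 on the 12 arrays numbered 2 to 4. Its log2 difference was 2.68 ± 0.77 for filamentous minus large spherical (adjusted p = 0.610), 2.48 without filamentous replicate 1, 2.11 on the 12 arrays and 0.62 once an offset of 10 was added before log2. Its linear trend was 0.61 ± 0.24 log2 per stage (adjusted p = 0.258), and it passed only without tubular replicate 1 (0.71, adjusted p = 0.0341) and with quantile normalization (0.66, adjusted p = 0.0393) among the alternatives run. The 2 probes of APOA1 had the same sign in 5 of the 6 pairs of stages, the exception being tubular minus small spherical (-0.12 at probe 138 and 0.15 at probe 164). Over the single arrays they did not follow each other closely. The mean absolute difference of their log2 values, each centred on its own mean, was 0.94 over 16 arrays. By the same measure the median distance of probe 138 from other genes was 0.47.

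APOA2 read 95.9, 86.1, 56.5 and 60.6 on the small spherical arrays and 78.2, 68.0, 77.8 and 56.9 on the large spherical ones. It read 47.9, 85.0, 114 and 67.3 on tubular and 117, 85.3, 89.4 and 94.4 on filamentous arrays. Filamentous values lay above all large spherical values and overlapped those of the other stages. The difference was 0.46 ± 0.25 for filamentous minus large spherical (adjusted p = 0.722) and 0.36 ± 0.25 for filamentous minus tubular (adjusted p = 0.994). The difference from tubular conceptuses was 0.26 without filamentous replicate 1, 0.14 without tubular replicate 1, the lowest array for APOA2, and 0.56 without tubular replicate 3, the highest of its stage. On the 12 arrays numbered 2 to 4 it was 0.049, while that from large spherical conceptuses was 0.42 there and 0.36 without filamentous replicate 1. In all, 3 member probes, those of APOA1 and APOA2, lay above every large spherical array in filamentous conceptuses, which held for 2.86% of all probes. Both APOA1 probes did so over tubular arrays, against 1.97% of all probes. No member probe lay below every array of either stage in filamentous conceptuses, as 0.986% of all probes did in each case. None lay above every small spherical array in filamentous conceptuses (4.54% of all probes), in tubular ones (4.54%) or in large spherical ones (3.85%). Between tubular and large spherical conceptuses every member overlapped, where 1.18% of all probes were higher and 1.78% lower without overlap.

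RBP4 carries retinol, the transport form of vitamin A, to cells. Probe 134, its brightest, read 24.5, 28.6, 60.3 and 30.1 on small spherical arrays and 59.0, 38.0, 25.7 and 74.1 on large spherical arrays. It read 51.3, 33.0, 44.4 and 54.3 on tubular and 90.3, 60.8, 49.1 and 56.6 on filamentous arrays. Apart from small spherical replicate 3, every small spherical array was below every filamentous and every tubular array, and with that replicate the groups overlapped. The 1.86-fold difference between filamentous conceptuses, with 64.2 ± 18.1, and small spherical ones, with 35.9 ± 16.5 (SD, n = 4 each), did not pass (log2 0.90 ± 0.34 SE, adjusted p = 0.223). It was 0.72 without filamentous replicate 1, 1.00 without small spherical replicate 3 as well, and 0.57 on the 12 arrays numbered 2 to 4.

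The dimmer probes of RBP4 varied more. Probe 230 read 4.82 to 33.6 on small spherical, 11.5 to 30.02 on large spherical, 8.79 to 32.0 on tubular and 11.2 to 47.6 on filamentous arrays, so every stage overlapped every other. Probe 1018 read 6.60 to 21.4, 6.91 to 18.5, 7.12 to 26.7 and 15.9 to 20.3 in the same order of stages, and its filamentous arrays were the least spread, with an SD of 2.09. All 3 probes had their highest mean in filamentous conceptuses. Over the single arrays they lay no closer than a typical other gene. By the mean absolute difference of centred log2 values, probe 134 lay 0.64 from probe 230 and 0.59 from probe 1018. Probes 230 and 1018 lay 0.62 apart, and the median distance of probe 134 from other genes was 0.54. The differences from small spherical conceptuses were 0.78 ± 0.62 at probe 230 and 0.56 ± 0.41 at probe 1018 (adjusted p = 0.647 and 0.592). On the 12 arrays numbered 2 to 4 the value at probe 230 was -0.06, so its direction rests on the arrays numbered 1, whereas that at probe 1018 was 0.33. Without filamentous replicate 1 the values were 0.51 and 0.62, and without small spherical replicate 1 they were 0.20 and 0.28 at probes 230 and 1018. Probe 230 gave 1.21 without filamentous replicate 4.

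**Figure D3:**
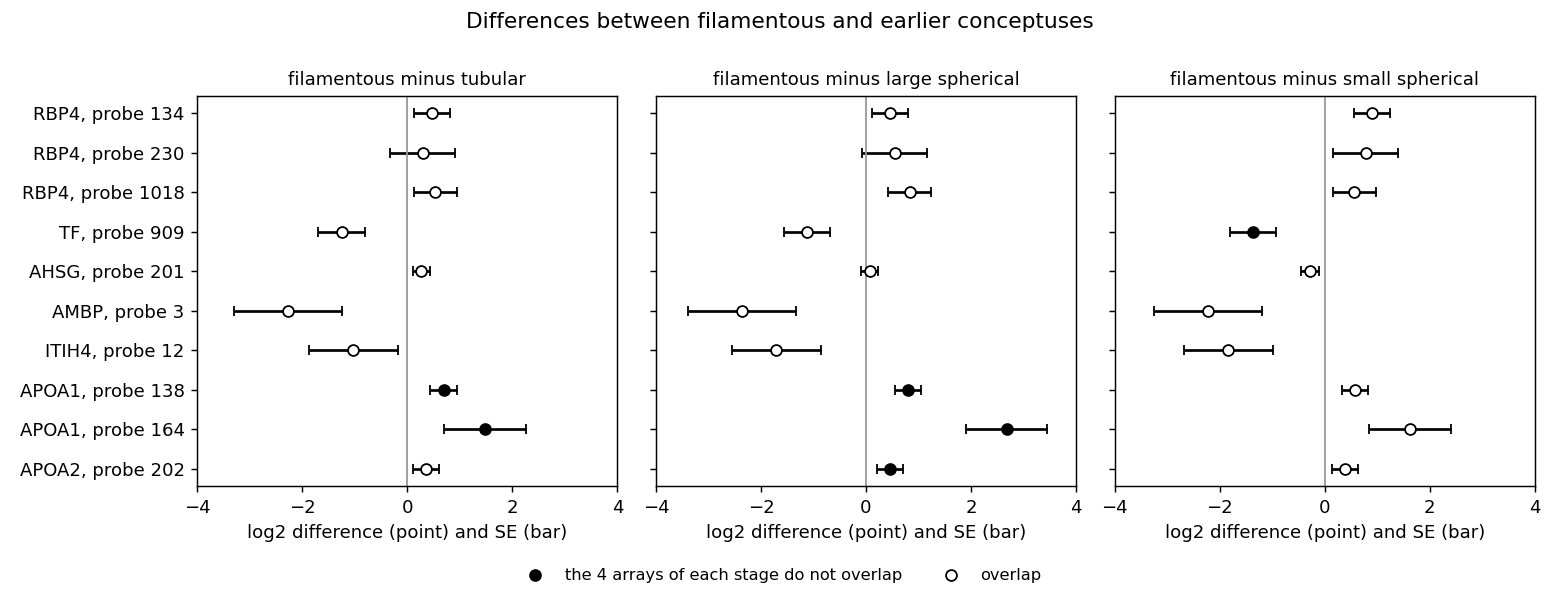
Log2 difference of filamentous conceptuses from each earlier stage (points) with its SE (bars) for the 10 carrier protein probes; filled points mark probes whose 4 filamentous arrays do not overlap the 4 arrays of the other stage. All probes of APOA1, APOA2 and RBP4 lie right of 0 and TF, AMBP and ITIH4 lie left of 0 in all panels, with wide bars for AMBP and ITIH4.

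TF, transferrin, binds iron in extracellular fluid and delivers it through the transferrin receptor. It read 28.0, 35.0, 22.2 and 21.4 on small spherical arrays and 27.9, 41.4, 13.7 and 14.7 on large spherical arrays. It read 38.8, 16.3, 22.8 and 23.3 on tubular and 3.94, 14.6, 16.3 and 11.2 on filamentous arrays. All filamentous arrays were below all small spherical ones, which was so for 2.66% of all probes, and their highest value lay just above the lowest tubular one. TF was 2.58-fold lower in filamentous than in small spherical conceptuses (log2 -1.37 ± 0.44, adjusted p = 0.158). Against large spherical conceptuses its log2 difference was -1.12 ± 0.44 (adjusted p = 0.722), and against tubular ones it was -1.25 ± 0.44 (adjusted p = 0.994). Among the earlier stages its means lay close together, at 26.6 ± 6.31 and 24.4 ± 13.0 in the small and the large spherical stage and 25.3 ± 9.56 in the tubular stage (SD, n = 4). Filamentous replicate 1 was the lowest array. Without it the difference was -0.91 from small spherical, -0.66 from large spherical and -0.80 from tubular conceptuses. On the 12 arrays numbered 2 to 4 these were -0.88, -0.55 and -0.57. With an offset of 10 before log2, over all arrays, they were -0.79, -0.64 and -0.72. In the pig assembly Sscrofa11.1, RefSeq places a further gene with the symbol TF next to the entry this probe was matched to, so which of the 2 entries the signal measures is uncertain.

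AHSG, fetuin A, is a fetal plasma glycoprotein that binds calcium phosphate and keeps it in solution. It read 72.7, 73.3, 71.8 and 62.8 on small spherical arrays and 59.0, 54.7, 52.4 and 54.0 on large spherical arrays. It read 38.8, 49.6, 61.7 and 44.5 on tubular and 55.3, 55.0, 74.3 and 49.0 on filamentous arrays. The small spherical arrays lay above every large spherical and every tubular array, and filamentous replicate 3 alone among the later arrays reached their level. Lower values without overlap were found at 1.18% of all probes in large minus small spherical and at 2.76% in tubular minus small spherical. AHSG was 1.46-fold lower in tubular conceptuses, with 48.7 ± 9.74, than in small spherical ones, with 70.1 ± 4.95 (log2 -0.55 ± 0.17, adjusted p = 0.149). In large spherical conceptuses, with 55.0 ± 2.81, the difference was -0.35 ± 0.17 (adjusted p = 0.557). On the 12 arrays numbered 2 to 4 these differences were -0.43 and -0.36. Its SD within a stage was 0.20 on the log2 scale, as low as or lower than that of 90.9% of probes.

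AMBP encodes the precursor of alpha-1-microglobulin, a haem-binding lipocalin, and of bikunin, the protease inhibitor chain of the inter-alpha-inhibitors. AMBP read 6.60, 3.00, 5.01 and 12.6 on small spherical arrays and 6.00, 3.33, 7.01 and 12.8 on large spherical arrays. It read 4.86, 12.1, 3.40 and 7.03 on tubular and 0.517, 0.120, 3.73 and 11.2 on filamentous arrays. Filamentous replicates 1 and 2 sat at the lowest value of their arrays and replicate 4 lay within the range of every other stage, so the groups overlapped. The log2 difference was -2.27 ± 1.03 for filamentous minus tubular (adjusted p = 0.994), -2.36 ± 1.03 for filamentous minus large spherical (0.722) and -2.23 ± 1.03 for filamentous minus small spherical (0.328). With an offset of 10 before log2 they were -0.32, -0.35 and -0.31. Filamentous replicate 2 carried much of the size, as without it the differences were -1.14, -1.22 and -1.10 in the same order. They were -1.84, -1.92 and -1.80 without filamentous replicate 1, -3.32, -3.40 and -3.28 without replicate 4, and -1.95, -1.96 and -1.75 on the 12 arrays.

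ITIH4 is a plasma protein of the inter-alpha-trypsin inhibitor heavy chain family, known as an acute phase protein in pigs. It read 1.79, 6.20, 5.01 and 1.73 on small spherical, 6.00, 3.33, 2.67 and 1.24 on large spherical, 2.26, 1.69, 1.24 and 2.14 on tubular and 0.517, 0.120, 3.73 and 2.52 on filamentous arrays. Every stage overlapped every other. The difference for filamentous minus small spherical was -1.84 ± 0.85 (adjusted p = 0.329) and -0.22 with the offset of 10. For filamentous minus tubular it was -1.03 ± 0.85 (adjusted p = 0.994), and 1 of the 3 other normalizations gave it the opposite sign. Without filamentous replicate 2 alone, these differences were -0.88 and -0.08. Without filamentous replicate 1 they were -1.59 and -0.78, on the 12 arrays -1.85 and -0.66, and without filamentous replicate 3 the difference from tubular conceptuses was -1.73. ITIH4 and AMBP had exactly equal intensities on 6 of 16 arrays, filamentous replicates 1, 2 and 3 among them. On filamentous replicates 1 and 2 that shared value was the lowest of the array, so these arrays give no order between the probes.

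Other genes of the same lineage and of the pathways these carriers serve were set beside them. Of 29 listed hypoblast and yolk sac genes 7 were measured, and 0 of 7 passed in any contrast by limma. For filamentous minus tubular 3 were positive and 4 negative, with a median of -0.23, beside 0.02 over all probes. COL4A2, a chain of basement membrane collagen, read 35.5 ± 17.9, 18.7 ± 5.13, 33.5 ± 7.38 and 38.5 ± 9.98 from small spherical to filamentous. FN1, fibronectin, was 191 ± 34.1 in filamentous conceptuses against 155 ± 19.6 in tubular ones, and LAMB1, a laminin chain, was 216 ± 50.3 against 251 ± 29.0 (SD, n = 4). None of these 3 passed over all probes.

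APOE, a lipoprotein ligand of receptors of the LDL receptor family, was the 1 measured gene of 19 in the lipoprotein list. It averaged 102 ± 15.4, 81.1 ± 11.5, 75.1 ± 8.29 and 95.9 ± 10.9 from small spherical to filamentous (SD, n = 4). Filamentous minus tubular was 0.35 ± 0.16 (adjusted p = 0.994), of the same sign as for APOA1 and APOA2. For filamentous minus small spherical the signs differed, with -0.08 for APOE, 0.57 at APOA1 probe 138 and 0.39 for APOA2. Among the 12 listed genes of iron handling, FTL, the ferritin light chain, read 79.8 ± 16.8 in filamentous against 59.8 ± 18.8 in small spherical conceptuses. ACP5, known in pigs as uteroferrin, an iron-carrying secretion of the uterus, read 19.6 ± 11.2 against 25.7 ± 5.98 at its brighter probe. Neither FTL nor ACP5 passed (adjusted p = 0.349 and 0.551). Of 16 retinoid genes 3 were measured, the nuclear receptors RARA, RARB and RXRB. RARA averaged 27.7 ± 8.74 in filamentous against 41.6 ± 5.21 in tubular conceptuses, and 0 of 3 passed in any contrast. The hyaluronan list, which held the partners of AMBP, had 0 measured genes.

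**Figure D4:**
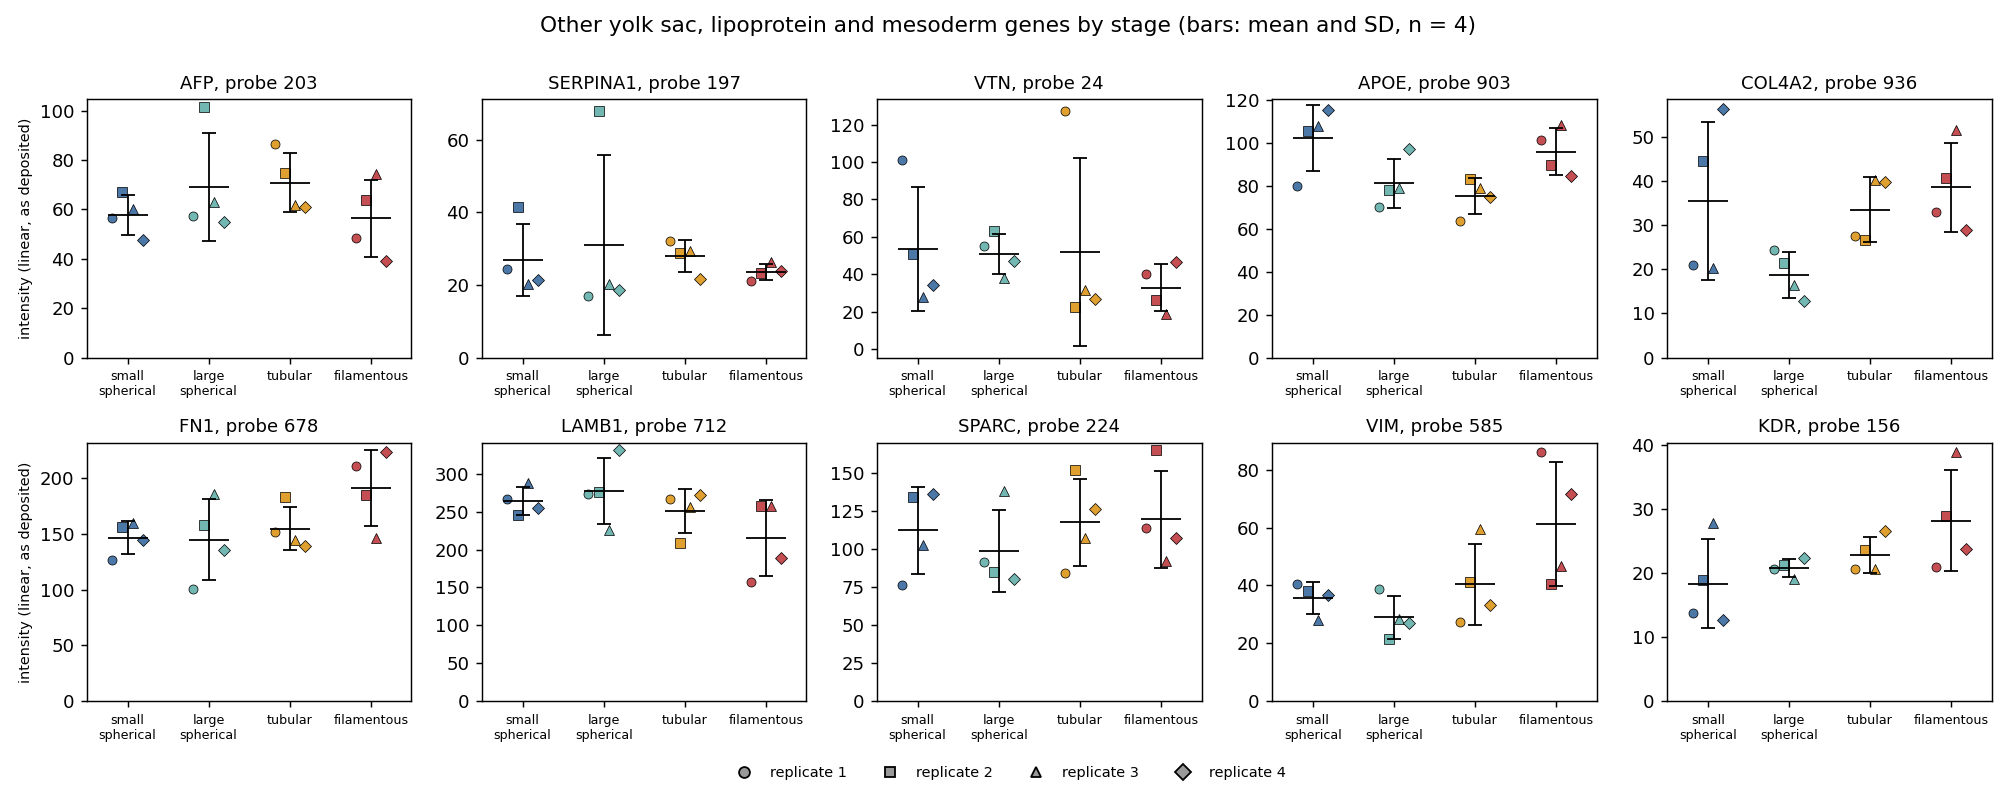
Intensity (linear, as deposited) of 10 other genes of yolk sac endoderm, lipoprotein handling and mesoderm in the 4 stages, with 1 point per array and the mean and SD of 4 arrays as bars. AFP and SERPINA1 overlap between all stages. VIM reads 40.6 to 86.0 on filamentous arrays and 27.5 to 59.5 on tubular ones, which overlap as well.

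Markers of other cell types were measured as well. Of 11 epiblast and mesoderm markers 3 were measured, T, KDR and VIM, and all had a positive difference for filamentous minus tubular, as 54.1% of all probes did. Their summed intensity was 79.8 to 121 in filamentous against 55.3 to 90.1 in tubular conceptuses, and 0 of 3 passed. VIM averaged 61.2 ± 21.4 against 40.4 ± 14.0, KDR 28.2 ± 7.91 against 22.9 ± 2.82 and T 10.8 ± 2.81 against 9.74 ± 1.97. For filamentous minus small spherical T was -0.18. POU5F1 and NANOG had no probe with 1 symbol. Of 15 trophectoderm markers 7 were measured, with summed intensities of 558 to 877 in filamentous against 680 to 846 in tubular conceptuses. In small spherical conceptuses, with which AHSG and TF were compared above, their sum was 414 to 797. These sums mix probes of unlike brightness and are not a measure of trophectoderm. KRT18 averaged 269 ± 39.9 in small spherical, 275 ± 26.6 in tubular and 250 ± 47.4 in filamentous conceptuses, where PDPN averaged 63.2 ± 69.1, 193 ± 34.7 and 181 ± 46.9. Of the 7 markers, 7 were positive for tubular minus small spherical, and 5 were positive and 2 negative for filamentous minus small spherical. PLAC1, a placental gene, was the 1 marker of them that passed in a contrast, higher in filamentous and in tubular than in small spherical conceptuses (log2 1.46 ± 0.28, adjusted p = 0.0159, and 1.36 ± 0.28, adjusted p = 0.0460). Maternal blood and endometrium had 3 of 14 markers measured, CD3E, ACP5 and PGR, with sums of 11.3 to 37.7 against 24.2 to 32.9, and HBB and PTPRC were not among them. The part of mesoderm, trophectoderm or maternal tissue in the values of the carrier genes was not tested.

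The genes nearest in pattern were found by the mean absolute difference of centred log2 intensities over the 16 arrays, among 634 other genes. APOA1 lay nearest to RPL36AL (0.18) and MAGED1 (0.21), where the median over all genes was 0.47. For APOA2 they were KDM1A (0.14) and JTB (0.16, median 0.42), and for AHSG RBM5 (0.15) and KATNBL1 (0.17, median 0.36). RBP4 was nearest to SERF2 (0.30) and NTAN1 (0.31, median 0.54), and TF to ITM2B and GPR108 (0.34 each, median 0.66). For AMBP they were GCM1 (0.71) and EDEM2 (0.91, median 1.22), and for ITIH4 PSMA7 (0.64) and KLKB1 (0.81, median 1.01). These dim probes often held equal intensities, AMBP and GCM1 on 5 of 16 arrays and ITIH4 and PSMA7 on 8. No member had another member among its nearest genes.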

How the data were processed

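Each deposited value was the linear intensity of 1 of 1015 probes on 1 of 16 arrays. Per the labels, total RNA was amplified, labelled with phosphorus-32 and hybridised to membranes, while the authors' scanning, background correction and normalization of the intensities are not given in the sources used here. All columns were used. The values were taken to log2 with no pseudocount, and 1 probe that held the same value on every array was left out. Stage and replicate number came from the sample titles. Probes were named from the platform annotation, and all 10 member probes kept their symbol in RefSeq.

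With limma 3.58.1 (R 4.3.3), all 16 arrays were fitted together with a mean for each stage, and tested by an F test, 6 contrasts and a linear trend over stage order, two-sided, with Benjamini-Hochberg adjustment over 1014 probes and a threshold of 0.05. The fit was tested on simulated data with independent normal noise around each probe's mean. That noise held no deviation shared between arrays and no values tied at an array's minimum, so the test does not cover these features of the real arrays. Means and SDs refer to linear intensities, whereas folds compare geometric means. The members and gene lists were chosen with earlier results of these data known. The rule for named genes took all member probes, up to 4 genes per list by the F test, and the 2 genes nearest in pattern to each member. KRT18 and KRT8, defining markers, and 3 genes that complete a plot (SERPINA1, VTN and SPARC) were shown outside this rule. Alternatives were 3 normalizations, no dim probes (lowest 25%), an offset of 10, a replicate block, fewer stages or arrays, and a trend along probe number removed. The number of arrays limits the precision. Deviations of same-numbered arrays correlated above 0.1 in all pairs (0.219 to 0.495) in 1 of 6 contrasts, large minus small spherical. Those of the arrays numbered 1 correlated in each of the 6 contrasts, at 0.270 to 0.495. Plots were drawn with matplotlib 3.10.9.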

Additional observations from a re-analysis of the deposited data

Results flagged for a closer look

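Within stages, 40 sets of 4 arrays (10 probes in 4 stages) were checked by Dixon's criterion on linear intensities. In 4 of them an array lay far from the other 3. Among normally spread values chance alone gives this in about 1 of 20 sets. The fit used log2 values, on which other sets can be flagged. RBP4 probe 134 read 60.3 on small spherical replicate 3, above the other small spherical arrays. RBP4 probe 230 read 8.79 on tubular replicate 3, below the other tubular arrays. AHSG read 62.8 on small spherical replicate 4, the lowest of that stage. APOA1 probe 164 read 10.8 on filamentous replicate 1, the highest of that stage.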

How the results depend on the processing

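The 8 counts of member probes past the threshold, each 0 of 10 over all arrays, stayed at 0 in 204 of 206 settings. For tubular or filamentous minus large spherical and for filamentous minus tubular, no probe of the whole table passed in any setting. The members' 0 says nothing about them there. In the other comparisons at most 36 of 1014 probes passed in a setting, so few calls were possible. With quantile normalization the count for the linear trend was 1 (APOA1 probe 164, adjusted p = 0.0393). With single arrays left out it ran from 0 to 1, and the 1 was the same probe without tubular replicate 1 (adjusted p = 0.0341). That probe is dim, and its adjusted p ran to 0.505 over the alternatives. With the replicate number as a block, 0 of 10 probes passed in each comparison. The 18 log2 values with an unadjusted p below 0.05 kept their sign in all 452 settings. They were picked by that p on the same arrays, so a stable sign was likely in advance. Some values outside this set turned, such as AMBP for tubular minus small spherical, in 8 of 25 settings. The offset of 10 before log2 took AMBP, filamentous minus small spherical, to -0.31 where it was -2.23. With the trend along probe number removed, an alternative chosen after seeing the data, TF in the same contrast was -1.27 and APOA1 probe 138 was 0.60. Leaving out the dimmest 25% of probes removes all but RBP4 probe 134, AHSG, APOA1 probe 138 and APOA2, so the others have no value there. The level at which dim probes reach background is not known.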

Other observations

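Some of the genes nearest in pattern were also near in probe number. Of the 14 genes named as nearest to a member, 5 had a probe number within 10 of the member's own, where 1.96% of all genes do. These were ITM2B for TF, RBM5 for AHSG, GCM1 for AMBP, KLKB1 for ITIH4 and JTB for APOA2. Whether probe numbers follow places on the membrane cannot be read from the labels, and the part of such an effect in these patterns was not tested.

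AHSG and APOE shared an order of stages in their highest and lowest means, with tubular lowest and small spherical highest. AHSG averaged 48.7 in tubular and 70.1 in small spherical conceptuses, and APOE 75.1 in tubular and 102 in small spherical ones. CD3E, a T cell gene, was dim at every stage, with means of 2.22 ± 0.546 and 2.85 ± 1.21 in the small and the large spherical stage and of 1.32 ± 0.745 and 2.69 ± 0.796 in the tubular and the filamentous one (SD, n = 4).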
